A study of Mus musculus with 9 samples.

Results

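The cells described here are NIH3T3-CG mouse embryonic fibroblasts of Experiment 2 at 0 h of SAG, the baseline from which the Hedgehog agonist was given, as 1 library labelled Dox and 1 library labelled no Dox. Cells were chosen as barcodes with at least 5000 UMIs, of which at most 10% lay in genes encoded by the mitochondrial genome. A UMI (unique molecular identifier) counts 1 captured transcript. The rule kept 1362 cells with Dox and 2979 cells without Dox, together 4341 of the 18733 cells that it keeps in the whole series. The series holds 9 libraries of this line, made with droplets of the 10x Genomics system that tag the 3' end of transcripts after release of the cells with trypsin. In Experiment 2 cells with Dox and cells without it were taken at 0, 19 and 30 h after SAG, while Experiment 1 was taken at 0, 17 and 30 h. SAG is a small molecule that binds Smoothened and switches the pathway on, and neither 0 h library had received it for any time. What Dox switches on in this line, how long it was present and whether the cultures were separate is not in the labels. They do not mention Dox for Experiment 1, whose library at 0 h is used here as a further library before SAG. Whether its cells had Dox is not stated.

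In fibroblasts without Hedgehog ligand, Patched (Ptch1) keeps Smoothened (Smo) inactive, and the transcription factors Gli2 and Gli3 are held back by Sufu and processed into repressors at the primary cilium. Activation of Smoothened reverses this, and transcription of Gli1 and Ptch1 is the usual readout. Fibroblasts are also the main makers of connective tissue matrix, in which collagen fibrils are coated by small leucine-rich proteoglycans such as decorin, asporin and osteoglycin.

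Both libraries were of fibroblasts, and they shared none of the kept barcodes. All 9 fibroblast markers of the list used had UMIs in each, and their summed level was 10666 CPM (counts per 1000000 UMIs of the library) with Dox and 6630 CPM without Dox. Of the markers of smooth muscle and myofibroblasts, a class that shares actin genes with cultured fibroblasts, at least 3 were found in 32.0% of the Dox cells and 28.6% of the no Dox cells, and for 8 other classes 0 cells had as many in either library. The median kept cell had 29144.5 UMIs with Dox and 28335 UMIs without Dox. The limit on mitochondrial UMIs removed 45.6% of the barcodes of at least 5000 UMIs with Dox and 44.8% without Dox. Just outside it, with over 10% to 20%, lay 1057 of 2504 such barcodes with Dox and 2090 of 5392 without Dox, and just inside it, with over 5% to 10%, lay 1210 with Dox and 2687 without Dox. Cells of at most 5%, used below as a subset, were few. With Dox 19 had under 1% and 133 had 1% to 5%, and without Dox 18 and 274 did. Ratios in that subset are given without intervals. Since there is 1 library a side, no difference below has a replicate check or a p-value, and all intervals cover counting error only.

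Most genes took a larger share of the UMIs with Dox than without Dox. Over 9615 genes with at least 3 CPM in either library, the median log2 ratio of Dox over no Dox was 0.38, and the 5th and 95th percentiles were -0.23 and 1.02. Genes of ribosomal proteins, which make the cell's protein synthesis machinery, held 37.9% of the UMIs with Dox and 43.6% without Dox. With these genes left out of the totals the median log2 ratio was 0.24, and between cells in which they held 35 to 42% it was 0.18. When every cell was thinned at random to 10000 UMIs, the median cell showed 2365.5 genes with Dox and 2017.5 genes without Dox. At least 2-fold higher with Dox were 513 genes (5.34%) and at least 2-fold lower were 37 genes (0.385%). With TMM scaling, which sets the bulk of genes level between the libraries, these became 184 genes (1.91%) and 103 genes (1.07%), so that the balance of higher and lower genes depends on the scaling. A gene needs a log2 ratio of 1.37 to be 2-fold higher under TMM, so calls below that are lost there. Of the 513 higher genes, 177 reached 3 CPM with Dox only and could enter only through the library where they are high, so counts over lists are descriptions of the members that passed. Ratios below are of CPM unless TMM is named, and each is to be read against the 0.38 of the median gene.

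**Figure D1:**
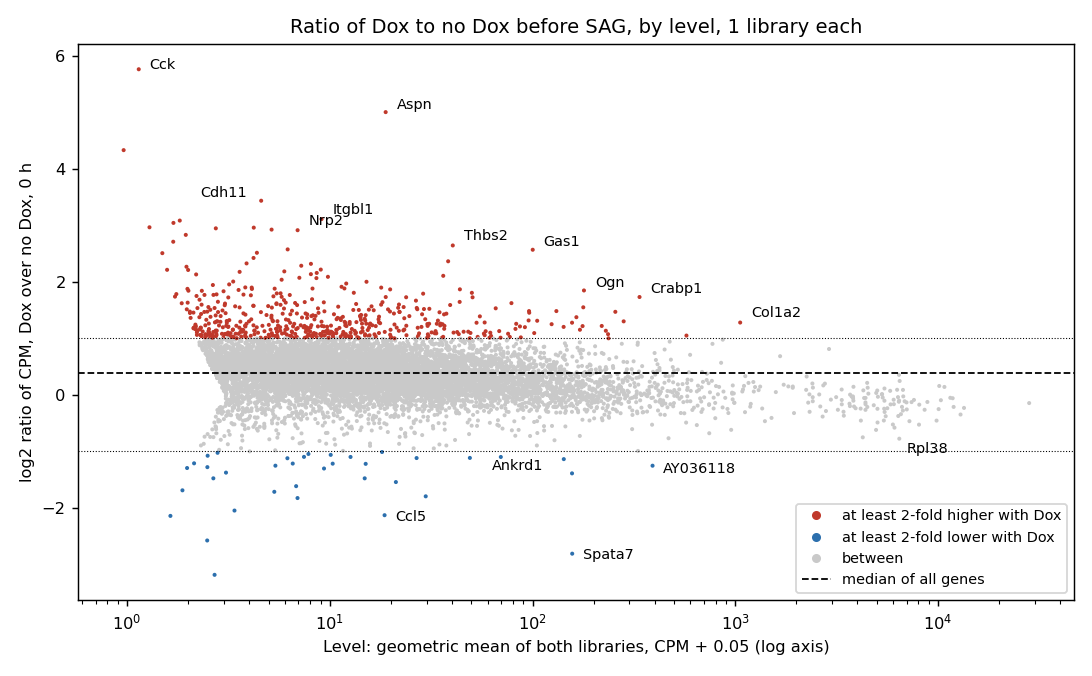
Each point is 1 of 9615 genes, placed by its level (geometric mean of the CPM in both 0 h libraries, log axis) and its log2 ratio of Dox over no Dox. The dashed line marks the median of 0.38 and the dotted lines mark 2-fold. Aspn at 5.0 and Cck at 5.76 stood highest, and Spata7 at -2.81 was the lowest of the abundant genes.

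The Hedgehog readouts were low in both libraries. Gli1, the zinc finger factor that is the standard target, had 5 UMIs with Dox and 3 UMIs without Dox, or 0.120 and 0.0350 CPM, a ratio of 3.23 with a 95% counting interval from 0.666 to 22.0. Hhip, a membrane protein that binds Hedgehog ligands, had 0 UMIs in both, which allows up to 0.0719 CPM with Dox and 0.0350 CPM without Dox, and since it was also at 0 CPM in all 4 libraries at 19 and 30 h of SAG it does not report on the pathway here. Ptch1, receptor and target at once, was at 3.21 CPM with Dox and 2.45 CPM without Dox, a 1.31-fold ratio (interval 1.05 to 1.64) whose log2 value of 0.39 was that of a typical gene, and it was -0.02 when only cells with 35 to 42% ribosomal protein UMIs were compared. GFP_g1, a feature added to the reference that the labels do not describe, was at 2.30 CPM with Dox and 2.24 CPM without Dox (ratio 1.03, interval 0.795 to 1.32), and the sign of its log2 ratio of 0.04 turns under TMM scaling, to -0.33. Before SAG, Gli1 and GFP_g1 thus did not differ detectably at this depth, and the ratio of Ptch1 was close to that of the median gene.

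Among the proteins that carry the signal, several were higher with Dox. Gas1, a membrane-anchored co-receptor that helps Hedgehog ligand reach Patched and is also known as a growth arrest gene, was at 244 CPM with Dox and 41.1 CPM without Dox, a 5.93-fold ratio (interval 5.70 to 6.16). Cdon, a co-receptor of the immunoglobulin superfamily, was at 8.30 CPM with Dox and 3.14 CPM without Dox (2.64-fold). Gli2, the main activator among the Gli factors, was at 8.46 CPM with Dox and 2.85 CPM without Dox, a 2.97-fold ratio (interval 2.52 to 3.51). Past 2-fold were 4 of 29 measured pathway components, these 3 among them, none was lower, and the list's median log2 ratio was 0.54, where 5.34% of all measured genes were higher. With TMM scaling 3 were past 2-fold, and the median was 0.16. Gli2, 1 of the 4, reached 3 CPM with Dox only.

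Gli3, mostly a repressor, was at 16.01 CPM with Dox and 8.27 CPM without Dox (log2 ratio 0.95). Smo itself was at 39.8 CPM with Dox and 23.4 CPM without Dox (0.76), and it was detected in 32.4% of thinned Dox cells and 20.8% of thinned no Dox cells. Sufu was at 6.50 CPM with Dox and 4.48 CPM without Dox (0.54). Of 10 measured genes from a list of Hedgehog targets, 1 was past 2-fold, where 5.34% of all measured genes were higher. It was Ccnd1, cyclin D1, a driver of entry into the cell cycle with many inputs besides Gli. Ccnd1 was at 34.7 CPM with Dox and 15.6 CPM without Dox. Its log2 ratio of 1.16 was 0.78 with TMM scaling and 0.61 between cells of 35 to 42% ribosomal protein UMIs, which ends the call. The cilium, where the pathway is switched, gave 5 of 35 measured genes past 2-fold, where 5.34% of all genes were, and none lower, with a median of 0.66. They were Tctn2 (1.63), Ift80 (1.33), Rpgrip1l (1.23), Ift122 (1.19) and Ift140 (1.07), parts of the transition zone and of the intraflagellar transport trains, and with TMM scaling 1 of the 5 was left, where 1.91% of all genes were higher. Ift80 and Rpgrip1l also were under 2-fold among subsets of cells, at 0.73 and 0.70 at the lowest. Among the 5 higher cilium genes, 3 reached 3 CPM with Dox only, so they could enter only through the library where they are high.

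The clearest difference lay in small leucine-rich proteoglycans, of which 6 of 7 measured members were at least 2-fold higher with Dox and none was lower, also with TMM scaling, where 5.34% of all genes were higher (1.91% with TMM). Their median log2 ratio was 1.87, and 2 of the 6, Prelp and Omd, reached 3 CPM with Dox only. Aspn, asporin, which binds collagen and TGF-beta, had 4423 UMIs (106 CPM) with Dox and 283 UMIs (3.30 CPM) without Dox, a 32.0-fold ratio (interval 28.5 to 36.3). In Experiment 1 at 0 h it was at 4.15 CPM, so the Dox library stood alone. Ogn, osteoglycin, a regulator of collagen fibril growth, was at 340.0 CPM with Dox, 94.5 CPM without Dox and 6.62 CPM in Experiment 1, 3 levels far apart. Dcn, decorin, was at 83.6 CPM with Dox and 22.9 CPM without Dox, but at 224 CPM in Experiment 1. Lum, lumican, followed the same order, with 11.6 CPM with Dox, 3.41 CPM without Dox and 28.3 CPM in Experiment 1. Prelp, a heparin-binding member, was at 5.08 CPM with Dox, 0.595 CPM without Dox and 0.274 CPM in Experiment 1. Omd, osteomodulin, was at 4.65 CPM with Dox, 0.560 CPM without Dox and 0.137 CPM in Experiment 1. Bgn, biglycan, the member not past 2-fold, was at 517 CPM with Dox and 309 CPM without Dox (log2 ratio 0.74). The ratio of Prelp ranged down to 1.93 and that of Dcn to 1.15 between subsets of cells, both still past 2-fold. Against Experiment 1 the members therefore split: in 4 of the 6 the Dox library was the highest of the 3 at 0 h, while Dcn and Lum were highest in Experiment 1.

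Aspn, Omd and Ogn are neighbours of Ecm2, another leucine-rich repeat matrix gene, in a row on the plus strand of mouse chromosome 13 (GRCm38, GENCODE vM21), from 49504810, the start of Ecm2, to 49624501, the end of Ogn. All 4 were higher with Dox, with log2 ratios of 3.45 for Ecm2 (98 UMIs with Dox and 18 UMIs without Dox), 5.0 for Aspn, 3.04 for Omd and 1.85 for Ogn. Cenpp, a centromere protein gene annotated on the minus strand from 49464023 to 49652785, spans the whole row, and its ratio was -0.03 (4.53 CPM with Dox and 4.63 CPM without Dox). Nol8, which follows at 49653078, was at 0.40, and Iars, the isoleucyl-tRNA synthetase beyond it, at 0.11. On the other side Ippk, whose end overlaps that of Cenpp, was at 1.03, Bicd2 at 1.01, Fgd3 at 2.65 (47 UMIs with Dox and 15 UMIs without Dox) and Card19 at 1.09. Within 500 kb, the 4 leucine-rich repeat genes and Fgd3 thus had the 5 highest ratios among genes with at least 40 UMIs. The sources used here do not give whether reads were assigned by strand, so reads of Cenpp introns and of these genes may not be fully told apart.

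The start regions of the 4 genes are shown because these genes lie side by side and were higher together. Each window runs from 250 bases before to 50 after the start in RefSeq (GRCm38.p6), 5' to 3' on the plus strand, and capitals mark TATAAA or CCAAT on either strand. Their positions are chr13:49504560-49504859 for Ecm2, chr13:49544193-49544492 for Aspn, chr13:49582212-49582511 for Omd and chr13:49607765-49608064 for Ogn.
Ecm2: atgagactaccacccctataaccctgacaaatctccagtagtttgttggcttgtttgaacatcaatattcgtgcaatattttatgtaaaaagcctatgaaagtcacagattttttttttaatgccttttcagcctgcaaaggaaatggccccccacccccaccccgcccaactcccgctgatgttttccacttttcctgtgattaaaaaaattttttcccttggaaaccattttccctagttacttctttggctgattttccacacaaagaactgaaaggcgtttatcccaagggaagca
Aspn: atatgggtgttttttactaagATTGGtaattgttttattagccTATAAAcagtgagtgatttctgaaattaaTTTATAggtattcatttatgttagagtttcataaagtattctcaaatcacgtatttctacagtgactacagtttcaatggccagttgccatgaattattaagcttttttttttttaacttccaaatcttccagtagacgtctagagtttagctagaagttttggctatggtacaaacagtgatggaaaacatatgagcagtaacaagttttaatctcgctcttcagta
Omd: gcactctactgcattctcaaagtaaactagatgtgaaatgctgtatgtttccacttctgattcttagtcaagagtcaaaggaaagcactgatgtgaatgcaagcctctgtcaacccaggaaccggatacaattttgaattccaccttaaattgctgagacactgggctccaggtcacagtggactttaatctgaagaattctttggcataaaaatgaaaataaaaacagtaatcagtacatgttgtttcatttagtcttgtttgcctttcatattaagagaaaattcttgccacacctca
Ogn: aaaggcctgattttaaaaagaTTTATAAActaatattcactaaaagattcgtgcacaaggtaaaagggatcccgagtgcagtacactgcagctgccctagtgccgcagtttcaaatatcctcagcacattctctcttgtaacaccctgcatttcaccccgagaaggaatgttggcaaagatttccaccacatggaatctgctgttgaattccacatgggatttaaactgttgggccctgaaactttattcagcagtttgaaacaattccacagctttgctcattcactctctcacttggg
TATAAA occurred in the windows of Aspn and Ogn, on both strands in each, and in 13.6% of 32851 RefSeq windows of the same length that were searched. In Ogn the match on 1 strand overlaps that on the other. CCAAT occurred once, in Aspn, and in 37.4% of all windows. TGANTCA (the AP-1 site), CACGTG (the E-box) and GACCACCCA (the Gli site) were found in none of the 4, against 7.81%, 7.15% and 0.253% of all windows. The 4 windows were poor in G and C, at 41.0%, 31.0%, 37.7% and 42.3% in the order above, where the median window had 52.7%.

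**Figure D2:**
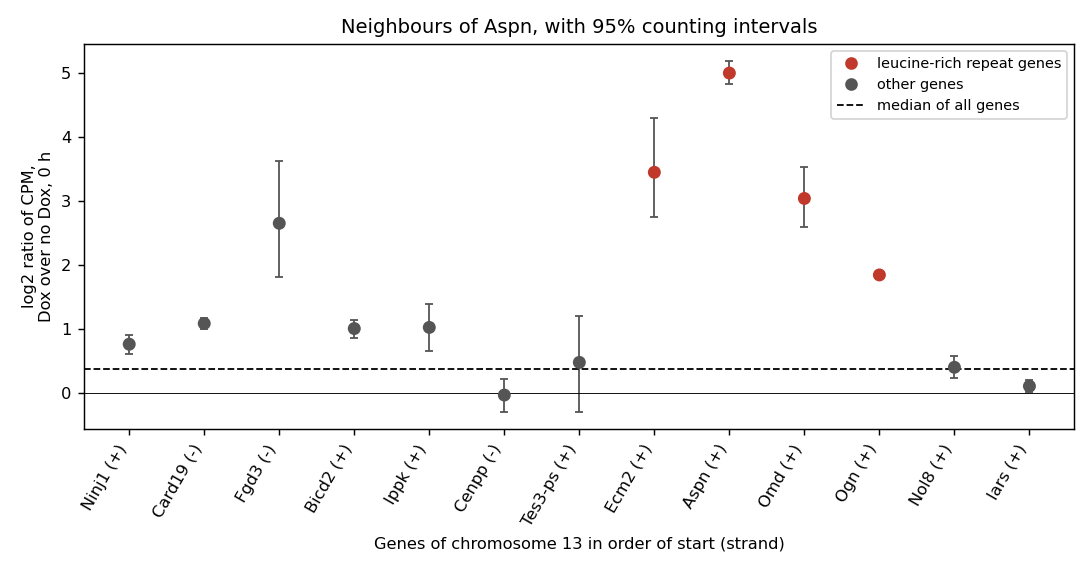
Log2 ratio of Dox over no Dox at 0 h for genes within 500 kb of Aspn on chromosome 13 with at least 40 UMIs in both libraries together, in order of their starts and with their strand. Bars are 95% counting intervals and the dashed line is the median of all genes, 0.38. Ecm2, Aspn, Omd and Ogn (red) stand between 1.85 and 5.0, while Cenpp, which spans them on the other strand, is at -0.03.

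Aspn was not spread evenly over the Dox cells. At 10000 UMIs a cell, 609 of 1324 Dox cells (46.0%, interval 43.3 to 48.7%) had at least 1 Aspn UMI, with a mean of 2.54 UMIs among them and a highest of 14. Of the no Dox cells 97 of 2658 (3.65%, interval 2.97 to 4.43%) had 1, and of the cells of Experiment 1 23 of 917 (2.51%). Ogn was found in 75.5% of Dox cells, 47.7% of no Dox cells and 5.34% of cells of Experiment 1. Within the Dox library, cells with an Aspn UMI had a mean of 5.18 Ogn UMIs, and cells without it had 2.39. Within the no Dox library the means were 3.48 and 0.979, and within Experiment 1 0.565 and 0.0593. The cells with an Aspn UMI thus had more Ogn in all 3 libraries, as a description of cells that share a library and a depth. No second cell type was found in which to measure the UMIs that free RNA gives. Gas1 followed with less contrast, with means of 3.29 and 2.04 UMIs in Dox cells with and without an Aspn UMI, and 1.09 and 0.427 in no Dox cells.

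**Figure D3:**
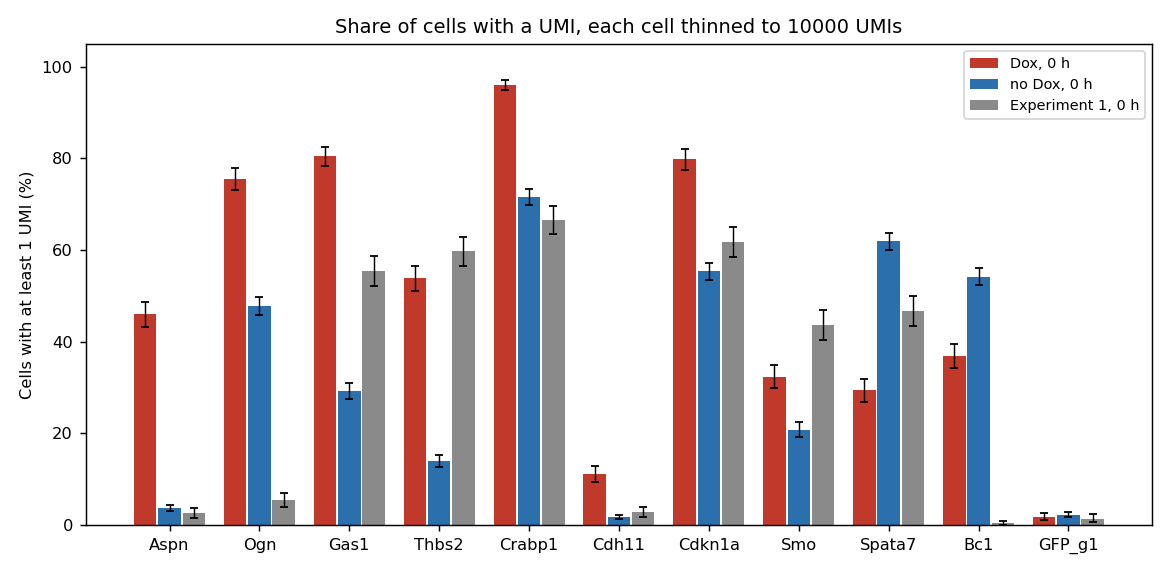
Share of cells with at least 1 UMI of a gene after thinning each cell to 10000 UMIs, in the 1324 Dox cells (red), 2658 no Dox cells (blue) and 917 cells of Experiment 1 (grey) at 0 h, with exact 95% binomial intervals. Aspn was found in 46.0% of Dox cells, 3.65% of no Dox cells and 2.51% of cells of Experiment 1, whereas Gas1 and Thbs2 were lowest in the no Dox library. For Gas1, Experiment 1 lay between Dox and no Dox.

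Fibrillar collagens and their partners followed. Of 27 measured genes of this list, 13 were at least 2-fold higher with Dox and none was lower, with a median log2 ratio of 0.90, and with TMM scaling 6 were. The shares over all measured genes were 5.34% and, with TMM scaling, 1.91%. Of the 13, 5 reached 3 CPM with Dox only. Col1a1 and Col1a2, the chains of type I collagen, were at 442 and 1647 CPM with Dox and at 179 and 679 CPM without Dox. Col11a1, a minor fibrillar chain that sets fibril diameter, was at 11.6 CPM with Dox and 1.48 CPM without Dox (7.77-fold). Mfap4, a microfibril-associated glycoprotein, was at 14.0 CPM with Dox and 1.84 CPM without Dox (7.59-fold). Thbs2, thrombospondin 2, a matricellular protein, was at 101 CPM with Dox and 16.1 CPM without Dox (6.25-fold), and at 139 CPM in Experiment 1. Also among the 13 were 3 chains of collagen VI, at 1.31 for Col6a1, 1.10 for Col6a2 and 1.42 for Col6a3. Fn1, fibronectin, at 2109 CPM with Dox and 1313 CPM without Dox, was not (0.68), and Tnc, tenascin C, stood lowest at -0.38, with 8.30 CPM with Dox and 10.8 CPM without Dox.

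Enzymes that build and cut the matrix had 8 of 26 measured members past 2-fold higher, 1 lower and a median of 0.54, but with TMM scaling none of the 8 was past 2-fold, and Tgm2 stayed the 1 lower gene. The shares over all measured genes were 5.34% higher and 0.385% lower. Among the 8, 1 reached 3 CPM with Dox only, and Tgm2 reached it without Dox only. The collagen cross-linking oxidases Lox (826 CPM with Dox and 399 CPM without Dox), Loxl1 (110 and 52.1 CPM) and Loxl3 (11.1 and 5.14 CPM) were among the 8. Mmp14, a membrane collagenase, was at 46.9 CPM with Dox and 18.6 CPM without Dox, and Bmp1, the protease that trims procollagen, at 23.3 and 9.75 CPM. Tgm2, a transglutaminase that cross-links matrix proteins, was lower, at 1.68 CPM with Dox and 3.56 CPM without Dox. Of the basement membrane list, Col4a1 (42.9 CPM with Dox and 18.6 CPM without Dox) and Col4a2 (24.1 and 10.2 CPM), a pair of collagen IV chains, were past 2-fold among 12 measured genes, and with TMM scaling neither was.

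**Figure D4:**
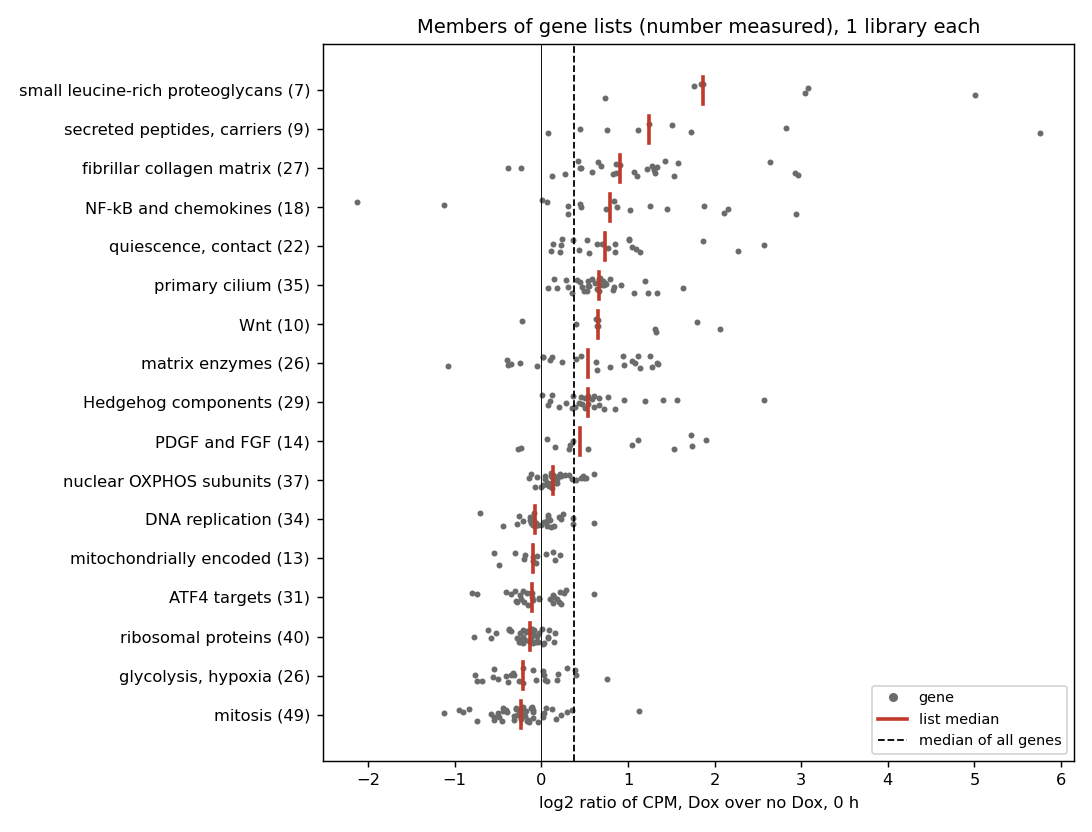
Log2 ratio of Dox over no Dox at 0 h for each measured member of 17 gene lists (grey points), with the list's median (red bar) and the median of all genes, 0.38 (dashed line). Small leucine-rich proteoglycans had the highest median, 1.87, and mitosis genes the lowest, -0.23.

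Some adhesion and guidance molecules were among the 16 highest ratios at 10 CPM or more, by which they were picked. No list of such genes was counted, so there is no share to read them against. Cdh11, cadherin 11, the cadherin of mesenchymal cells, was at 14.8 CPM with Dox, 1.37 CPM without Dox and 2.71 CPM in Experiment 1, a ratio of Dox over no Dox of 10.8 (interval 8.89 to 13.3). Itgbl1, a secreted protein that resembles integrin beta chains, was at 26.5 CPM with Dox and 3.07 CPM without Dox. Nrp2, neuropilin 2, a co-receptor for semaphorins and VEGF, was at 18.8 CPM with Dox and 2.50 CPM without Dox, but at 29.5 CPM in Experiment 1. Cemip, a hyaluronan-degrading protein, was likewise at 17.9 CPM with Dox, 3.58 CPM without Dox and 19.2 CPM in Experiment 1. For Nrp2 and Cemip it is thus the no Dox library that stood apart from the other two libraries, whereas for Cdh11 it is the Dox library. Outside the rule for naming genes, and picked after its value was seen, Itga8, the integrin alpha 8 chain, had 161 UMIs with Dox and 16 UMIs without Dox, a log2 ratio of 4.33. Cdh11, Nrp2 and Itga8 reached 3 CPM with Dox only, so they could enter only through the library where they are high.

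Signals for growth and patterning were higher at the level of ligands as well as receptors. Of 14 measured genes of the PDGF and FGF lists, 6 were past 2-fold: the ligands Fgf10 (7.29 CPM with Dox and 1.95 CPM without Dox) and Fgf7 (34.3 and 10.3 CPM), and the receptors Fgfr2 (9.54 and 2.85 CPM), Pdgfrb (45.6 and 15.7 CPM), Fgfr1 (67.2 and 31.0 CPM) and Pdgfra (89.5 and 43.5 CPM). With TMM scaling 4 were, and the median of 0.45 was close to that of all genes. Over all measured genes 5.34% were higher (1.91% with TMM). Fgf10 and Fgfr2, 2 of the 6, reached 3 CPM with Dox only. Of 10 measured Wnt genes 4 were past 2-fold (2 with TMM), namely the ligand Wnt5a (17.5 CPM with Dox and 4.17 CPM without Dox), the secreted Dkk3 (10.1 and 2.91 CPM) and the Frizzled receptors Fzd1 (22.5 and 8.97 CPM) and Fzd2 (151 and 60.6 CPM). Dkk3, 1 of the 4, reached 3 CPM with Dox only. Irs1, which couples insulin and IGF receptors to their kinases, was at 10.3 CPM with Dox and 1.80 CPM without Dox (5.71-fold). Pmepa1, a feedback inhibitor of TGF-beta signalling, was at 47.3 CPM with Dox and 14.9 CPM without Dox.

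Secreted peptides and carriers had 6 of 9 measured genes past 2-fold (4 with TMM scaling), where 5.34% of all genes were, but 4 of the 6, Cck and Apod among them, reached 3 CPM with Dox only. Crabp1, which binds retinoic acid in the cytoplasm, was at 614 CPM with Dox, 185 CPM without Dox and 220.0 CPM in Experiment 1, and was found in 96.1%, 71.6% and 66.6% of thinned cells. Aldh1a1, an enzyme that makes retinoic acid and is a member of no list here, was at 15.8 CPM with Dox and 3.25 CPM without Dox. Apod, apolipoprotein D, a lipid carrier, was at 5.01 CPM with Dox and 0.700 CPM without Dox. Cck, the gene of the peptide hormone cholecystokinin, gave the highest ratio of all measured genes, 54.2 (interval 31.2 to 115), from 303 UMIs with Dox and 11 UMIs without Dox. At 40.3 CPM in Experiment 1, against 7.26 CPM with Dox and 0.128 CPM without Dox, it was in fact highest in that library.

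Chemokines went both ways. Of 18 measured genes of the NF-kB and chemokine list, 7 were at least 2-fold higher with Dox and 2 were lower (5 and 2 with TMM scaling). Over all measured genes 5.34% were higher and 0.385% lower. Of the 7, 3 reached 3 CPM with Dox only. For 6 of the 7 the no Dox library was at least 2-fold below both other 0 h libraries in CPM. The Dox library was at least 2-fold above both for 0 of them. Over the 503 higher genes that are features of Experiment 1, these counts were 285 and 106 (3% and 1.11% of all genes). Less the ratio of the median gene, Cxcl5 was at 1.45 for Dox over Experiment 1 and -0.30 for no Dox over Experiment 1. Ptx3 was at 0.46 and -2.07, so the side apart depends on the gene and the scaling. Higher were Ccl2 (159 CPM with Dox and 58.2 CPM without Dox), Ccl7 (110 and 54.1 CPM) and Ccl8 (75.1 and 17.5 CPM), all attractants of monocytes, Cxcl1 (10.1 and 2.76 CPM) and Cxcl5 (18.1 and 4.05 CPM), attractants of neutrophils, Nfkbiz (5.92 and 2.48 CPM), an IkB-like cofactor, and the pattern recognition protein Ptx3 (7.41 and 0.957 CPM). Lower were Ccl5, an attractant of T cells and monocytes, at 8.87 CPM with Dox and 38.9 CPM without Dox, and Ptgs2, the inducible cyclooxygenase, at 18.1 and 39.4 CPM. Among cells of at most 5% mitochondrial UMIs the log2 ratio of Cxcl5 was 0.29, against 2.16 among all, which ends its call. Ccl5 came from few cells, since 3.85% of thinned Dox cells and 6.43% of thinned no Dox cells had a UMI of it. Ccl2 was found in 56.9% of Dox cells and 28.8% of no Dox cells. Saa3, an acute phase protein, illustrates how few cells can carry a level: its 52.0 CPM with Dox and 21.8 CPM without Dox came from under 1% of thinned cells in both (0.529% and 0.602%), and its log2 ratio of 1.26 became -0.0304 when cells were thinned.

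Genes of cell arrest and quiescence were on the higher side, with 8 of 22 measured genes past 2-fold, none lower and a median of 0.73. With TMM scaling 3 were. Over all measured genes 5.34% were higher (1.91% with TMM). For 6 of the 8 the no Dox library was at least 2-fold below both other 0 h libraries in CPM. The Dox library was at least 2-fold above both for 0 of them, and 1 of the 8 reached 3 CPM with Dox only. Over the 503 higher genes that are features of Experiment 1, these counts were 285 and 106 (3% and 1.11% of all genes). Less the ratio of the median gene, Gas1 was at 1.18 for Dox over Experiment 1 and -0.97 for no Dox over Experiment 1. Dcn was at -0.97 and -2.42, so the side apart depends on the gene and the scaling. Gas1 and Dcn, given above, belong to this list. Gas6, a ligand of TAM receptor kinases, was at 4.17 CPM with Dox and 0.864 CPM without Dox, and Igfbp4, which binds insulin-like growth factors, at 87.0 and 43.2 CPM, against 458 CPM in Experiment 1. Cdkn1a, the p21 inhibitor of cyclin-dependent kinases, was at 265 CPM with Dox and 102 CPM without Dox (2.59-fold) and was found in 79.8% and 55.3% of thinned cells. Of 22 measured p53 targets, 3 were past 2-fold (1 with TMM scaling, where 1.91% of all genes were), namely Cdkn1a, Btg2 (18.3 CPM with Dox and 7.89 CPM without Dox) and Sesn1 (12.1 and 5.69 CPM), both restrainers of growth.

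Cell division genes were on the lower side of the median gene. Of 49 measured mitosis genes 48 lay below the 0.38 of all genes, and the list's median log2 ratio was -0.23. Past 2-fold were Nusap1, a spindle protein, at 4.15 CPM with Dox and 9.05 CPM without Dox (log2 ratio -1.12, but 0.20 among cells of at most 5% mitochondrial UMIs), and on the higher side Psrc1, another spindle protein, at 21.4 and 9.80 CPM. With TMM scaling 5 were at least 2-fold lower and none was higher. The shares over all measured genes were 5.34% higher and 0.385% lower (1.91% and 1.07% with TMM scaling). Ube2c, a ubiquitin enzyme that acts at the exit from mitosis, was at 18.6 CPM with Dox and 35.9 CPM without Dox (-0.95), and like Nusap1 it turned among cells of at most 5% mitochondrial UMIs, to 0.36. Of 34 DNA replication genes none was past 2-fold, 33 lay below the median of all genes, and their median was -0.07. Cells with at least 20 UMIs of the mitosis list, in 10000, made up 5.21% (interval 4.08 to 6.55%) with Dox, 9.67% (8.57 to 10.9%) without Dox and 13.3% in Experiment 1. Cells with at least 10 UMIs of the replication list made up 6.27% (5.02 to 7.71%) with Dox, 9.44% (8.36 to 10.6%) without Dox and 14.5% in Experiment 1. At these limits both shares were lower with Dox beyond counting error, but the limit of 20 was added after seeing the data. At the first limit of 5 mitosis UMIs, which most cells passed, the direction was opposite, with 74.8% with Dox and 70.8% without Dox, so the mitosis share has no direction that holds at both limits.

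The genes that were lower with Dox were a mixed set, given here with the level in Experiment 1. Spata7, a protein of the photoreceptor connecting cilium, was at 59.2 CPM with Dox, 415.5 CPM without Dox and 71.8 CPM in Experiment 1, and it was found in 29.4%, 61.9% and 46.8% of thinned cells. In the no Dox library a single thinned cell reached 72 Spata7 UMIs, against 14 in the Dox library. Among no Dox cells, those with an Aspn UMI had a mean of 1.13 Spata7 UMIs and those without had 3.56. Bc1, a short non-coding RNA made by RNA polymerase III, was at 96.7 CPM with Dox, 253 CPM without Dox and 0.137 CPM in Experiment 1. AY036118, an annotation that overlaps ribosomal RNA-like sequence, was at 253 CPM with Dox, 603 CPM without Dox and 40.3 CPM in Experiment 1. Pbld1, named for a phenazine biosynthesis-like domain, was at 15.9 CPM with Dox, 55.3 CPM without Dox and 0.172 CPM in Experiment 1, and Snhg9, which hosts a small nucleolar RNA and overlaps Rps2 on the other strand, at 12.4, 36.1 and 1.51 CPM. Annotations on the other strand also overlap many other genes named in this text, such as Pbld1, Gas1, Nrp2, Irs1, Mfap4, Ptx3, Wnt5a and Fgf10. The annotation of Fgfr2 overlaps genes on both strands, with Ate1 and Oat among those on its own strand. Levels of such genes may hold reads of the annotations that overlap them. Bc1, AY036118, Pbld1 and Snhg9 differed more between the experiments than with Dox. Ankrd1, a muscle ankyrin repeat protein and target of YAP, was at 96.1 CPM with Dox, 211 CPM without Dox and 26.6 CPM in Experiment 1.

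Of 23 measured interferon-stimulated genes 1 was at least 2-fold higher with Dox and 2 were lower (0 and 2 with TMM scaling), 17 lay below the median gene, and the list's median was 0.05. The shares over all measured genes were 5.34% higher and 0.385% lower (1.91% and 1.07% with TMM scaling). The 2 lower were Isg15, a ubiquitin-like protein (47.6 CPM with Dox and 102 CPM without Dox), and Ifit1, which binds foreign RNA (8.61 and 18.5 CPM), while its relative Ifit2 was the higher one (9.83 and 4.06 CPM). All 3 calls end among cells of at most 5% mitochondrial UMIs, at -0.87 for Isg15, -0.42 for Ifit1 and 0.62 for Ifit2.

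No member was past 2-fold in either direction in 7 lists of mitochondrial, stress, metabolic and ribosomal genes. These were 13 mitochondrially encoded mRNAs (median -0.10), 37 nuclear subunits of oxidative phosphorylation (0.13), 32 genes of mitochondrial translation (0.23), 31 targets of the stress factor ATF4 (-0.11), 23 genes of the unfolded protein response (0.08), 26 genes of glycolysis and hypoxia (-0.21) and 40 ribosomal protein genes (-0.13). The same held for a further list, 19 genes of mitochondrial stress and protein quality control (0.05). These counts of 0 are to be read against 5.34% higher and 0.385% lower over all measured genes. All medians of these lists lay below the 0.38 of the median gene, and none of the 13 mitochondrial mRNAs and 40 ribosomal protein genes lay above it. Mitochondrial mRNAs took 7.33% of the kept UMIs with Dox and 7.41% without Dox, under a limit that the cell filter sets for both. Ddit3, the stress factor CHOP, was at 97.1 CPM with Dox and 169 CPM without Dox (-0.80), and Pgk1, a glycolytic kinase, at 359 and 611 CPM (-0.77). With TMM scaling 2 of the ATF4 targets, 3 of the glycolysis genes and 1 ribosomal protein gene, Rpl38, were at least 2-fold lower. Over all measured genes 1.07% were lower with TMM scaling. No direction is therefore given for these lists beyond their place below the median gene.

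The library of Experiment 1 gives a further level at 0 h beside each ratio. It was processed by another version of the software, and whether its cells had Dox is not stated. Its own median gene differed from both (log2 medians of -0.45 for Dox over Experiment 1 and -0.86 for no Dox over Experiment 1). Of the 9512 measured genes that are also features of Experiment 1, 106 (1.11%) were at least 2-fold higher with Dox than in both other libraries and 8 (0.0841%) at least 2-fold lower. The no Dox library was at least 2-fold below both others for 285 genes (3%) and above both for 22 (0.231%). When every ratio was taken relative to its own median gene, 175 genes were at least 2-fold higher with Dox than without, of which the Dox library was apart from both others for 92 and the no Dox library for 42. Among higher genes, the side more often apart thus changed with the scaling, from the no Dox library in CPM to the Dox library here. Aspn (5.12 for Dox over Experiment 1 and 0.53 for no Dox over Experiment 1 on this scale), Cdh11 (2.89 and -0.13) and Irs1 (2.13 and 0.03) were of the first kind. Nrp2 (-0.19 and -2.69), Thbs2 (-0.01 and -2.24) and Rasa3 (-0.42 and -2.19), a GTPase-activating protein for Ras, were of the second. Of 103 genes at least 2-fold lower with Dox on this scale, the Dox library was apart for 16 and the no Dox library for 66, including Spata7 with 0.17 for Dox over Experiment 1 and 3.40 for no Dox over Experiment 1.

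The Dox and no Dox libraries after SAG are other cells of the same experiment and share no library with the pair at 0 h. Of the 513 genes higher with Dox at 0 h, 199 (38.8%) were at least 2-fold higher with Dox at both 19 h and 30 h, where 2.52% of all measured genes were. The direction was the same at both later times for 507 (98.8%), but 74.7% of all measured genes were higher with Dox at both. Of the 37 lower genes, 9 (24.3%) were at least 2-fold lower at both later times, against 0.198% of all genes, and 32 (86.5%) were lower at both, against 10.3% of all measured genes. Of all measured genes 18.6% were at least 2-fold higher and 0.52% at least 2-fold lower with Dox at 19 h, and 2.76% and 0.343% at 30 h. The medians of all genes were 0.55 at 19 h and 0.24 at 30 h, and the no Dox library at 19 h was shallow, with a median of 8025 UMIs a cell.

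Aspn was at 77.1 CPM with Dox and 2.98 CPM without Dox at 19 h, and at 73.4 CPM with Dox and 2.99 CPM without Dox at 30 h, with log2 ratios of 5.0, 4.69 and 4.62 at 0, 19 and 30 h. Cdh11 was at 22.7 and 24.0 CPM with Dox and at 2.88 and 4.52 CPM without Dox at 19 and 30 h. For Gas1 the log2 ratio was 2.57 at 0 h, 2.02 at 19 h and 1.45 at 30 h, and for Ogn 1.85, 1.24 and 0.70. For Dcn and Lum it was 1.87 and 1.77 at 0 h and 0.02 and -0.16 at 30 h. Gli2 had ratios of 1.57, 2.49 and 1.49. Spata7 had -2.81, -1.22 and -0.97, with 43.5 CPM with Dox and 102 CPM without Dox at 19 h and 41.1 CPM with Dox and 80.5 CPM without Dox at 30 h. Bc1 had 43.3 CPM with Dox and 41.6 CPM without Dox at 19 h, a log2 ratio of 0.06 where the median gene had 0.55. Ccl5 stayed lower with Dox, at 23.5 CPM with Dox and 62.0 CPM without Dox at 19 h and 14.5 CPM with Dox and 33.97 CPM without Dox at 30 h.

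**Figure D5:**
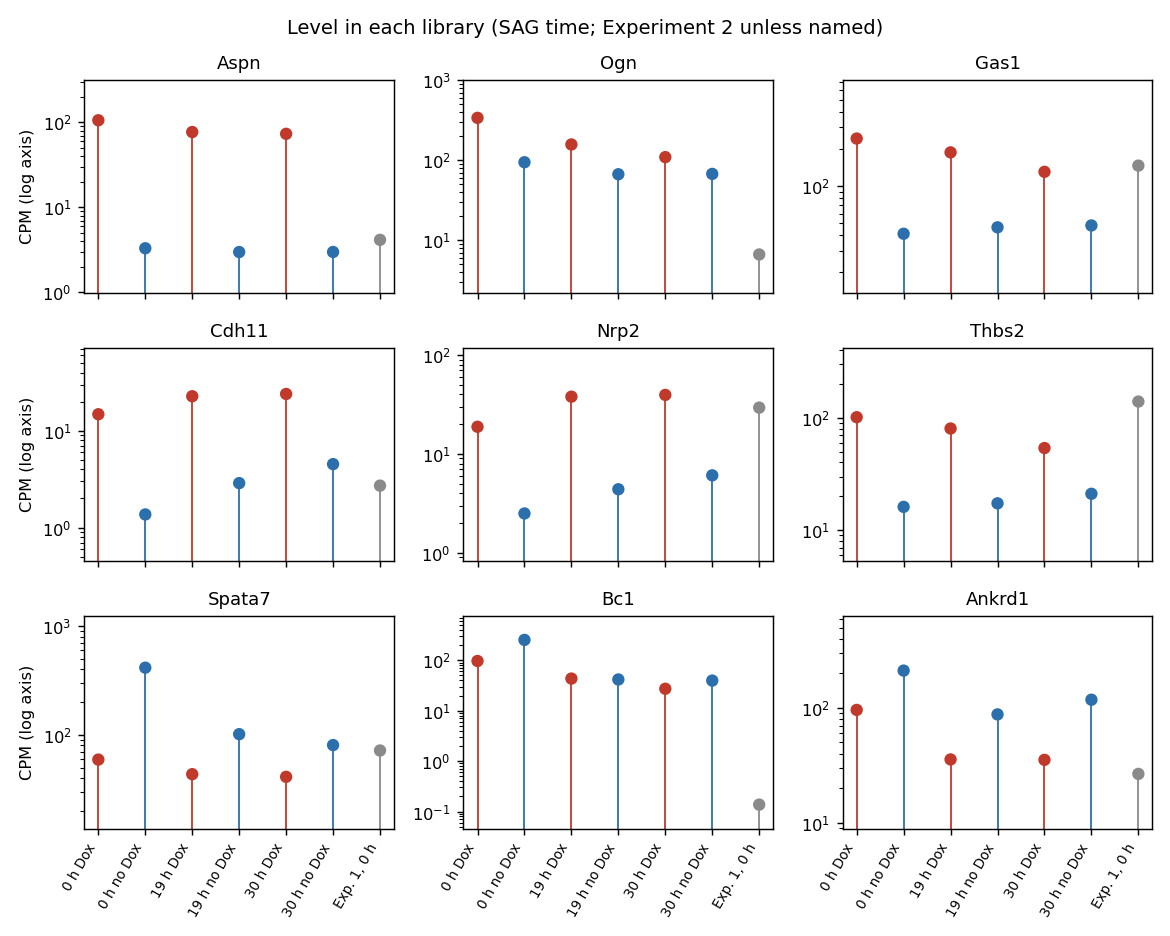
Level of 9 genes in CPM (log axis) in the 6 libraries of Experiment 2, in order of SAG time with Dox (red) left of no Dox (blue), and in Experiment 1 at 0 h (grey), with 1 point per library. Aspn is at 73.4 to 106 CPM in the Dox libraries and at 2.98 to 4.15 CPM in the others, while Spata7 stands out in the no Dox library at 0 h, at 415.5 CPM.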

How the data were processed

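The deposited files are matrices of UMI counts per gene and cell barcode, made with Cell Ranger (6.0.1 for Experiment 2 and 3.1.0 for Experiment 1, per the file headers) on mm10, per the submitters' processing notes. Whether counting used strand or intronic reads is not given in the sources used here. Barcodes of at least 5000 UMIs with at most 10% mitochondrial UMIs were kept, their counts were summed per library and divided by the total (CPM), and log2 ratios were taken with 0.5 UMI added. A gene was measured at 3 CPM or more in 1 of the 2 libraries. Intervals are exact 95% (Clopper-Pearson) intervals, and the limit for 0 UMIs is 3 UMIs of the library's total. Barcodes that scrublet marked as doublets (8 with Dox and 4 without Dox, under 1% of each) were kept, and an alternative leaves them out. Named genes were the pathway genes, the 16 highest and 16 lowest ratios at 10 CPM or more, the 6 highest and 6 lowest at 200 CPM or more, the 2 highest and 2 lowest of each of 39 lists, and list members whose role is explained. The cells, members and lists were chosen with earlier results of these data known. The ratio and its interval were tested on simulated data. Scaling factors came from edgeR 4.0.16 (TMM) and DESeq2 1.42.0 in R 4.3.3, and the rest from Python 3.11.15 with scanpy 1.11.5, scipy 1.17.1, numpy 2.4.6, pandas 2.3.3 and matplotlib 3.10.9. No model was fitted to the counts, since there is 1 library a side. Values of 1 pathway component are not reported here.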

Additional observations from a re-analysis of the deposited data

Results flagged for a closer look

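In 3 of the genes chosen by the naming rule, the difference with Dox before SAG pointed the other way from that at both later times, with counting intervals at all 3 times that exclude no change. Other genes had opposite signs with at least 1 interval that holds no change. These differences between times were not tested. Hk2, hexokinase 2, had a log2 ratio of Dox over no Dox of -0.74 at 0 h, 0.3 at 19 h and 0.1 at 30 h. Pdgfc, a platelet-derived growth factor, had -0.24 at 0 h, 1.18 at 19 h and 0.76 at 30 h. Rpl5, a ribosomal protein, had 0.15 at 0 h, -0.15 at 19 h and -0.22 at 30 h. The opposite signs of Rpl5 and Hk2 depend on the scaling: both lay below the median gene at 0 h (0.38), at 19 h (0.55) and at 30 h (0.24), and with TMM scaling Rpl5 was at -0.22 at 0 h.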

How the results depend on the processing

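There is 1 library a side, so no replicate could be left out. No paired analysis was possible because each group holds a single library and no result comes from a test. The count of genes at least 2-fold higher with Dox (513) and lower (37) became 184 and 103 with TMM factors and 179 and 109 with DESeq2 size factors, both of which set the median gene near 0. It became 296 and 21 at 10 CPM or more, and 3528 and 1036 with no minimum level, where fewer and more genes enter. The higher count was 838 among cells under 5 mitosis and 10 replication UMIs, and the lower count was 96 among cells of at most 5% mitochondrial UMIs. Among alternatives added after seeing the data, the lower count was 71 with totals that leave out ribosomal protein genes, and the counts were 317 and 214 between cells of 35 to 42% ribosomal protein UMIs. A further one, cells under 20 mitosis and 10 replication UMIs, gave 608 and 35. The causes of the shifts with the cells or totals used were not tested. Of 75 named genes past 2-fold, 73 or more kept their direction under each of the 20 alternatives. The exceptions were Saa3, which turned to -5.04 among cells of at most 5% mitochondrial UMIs, -0.0304 in thinned cells and -3.89 among cells under 5 mitosis and 10 replication UMIs, and Nusap1, at 0.20 among cells of at most 5% mitochondrial UMIs. Past 2-fold remained 56 of the 75 with TMM and 64 between cells of 35 to 42% ribosomal protein UMIs. The log2 ratio ranged from 4.46 to 5.23 for Aspn, from 2.19 to 2.60 for Gas1, from 1.19 to 1.94 for Gli2, from 0.38 to 0.88 for Smo and from -3.21 to -2.02 for Spata7. Cells with at least 5 mitosis UMIs made up 79.9% with Dox and 72.9% without Dox at 20000 UMIs with limits doubled, and 70.1% with Dox and 63.1% without Dox with no mitochondrial limit. Cells with at least 10 replication UMIs made up 4.08% with Dox and 5.77% without Dox with no mitochondrial limit. Taking each ratio less its median, for the comparison with Experiment 1, was also added after seeing the data. Depth limits what can be said of Gli1 and Hhip, with 5 or fewer UMIs in each library.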

Other observations

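Some gene groups not described above had few members past 2-fold. Their counts are to be read against all measured genes, of which 5.34% were higher and 0.385% lower (1.91% and 1.07% with TMM scaling). Of 25 measured contractile genes 3 were higher with Dox, the myosin genes Myl9 and Myh10 and the myosin kinase Mylk, and none was lower (1 and 0 with TMM scaling). Of 32 measured genes of cholesterol metabolism 1 was higher, Abca1, the exporter of cholesterol to apolipoproteins, with a log2 ratio of 1.55. Abca1 reached 3 CPM with Dox only. Of 17 measured YAP targets 2 were higher (0 with TMM scaling) and 1, Ankrd1, was lower. Of 28 lysosome genes none was past 2-fold in either direction, and their median of 0.36 lay near that of all genes. Of 28 genes of the oxidative stress response 1 was higher, the glutathione transferase Gstm2, and none was lower. With TMM scaling 0 were higher and 2 were lower, Akr1b3 among them. Akr1b3, an aldose reductase, was at 235 CPM with Dox, 467 CPM without Dox and 522 CPM in Experiment 1.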
